A study of Mus musculus with 6 samples.

Results

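The genes described here are 43 genes of smooth muscle cells, hepatic stellate cells and portal fibroblasts, the contractile and matrix-making cells around bile ducts and vessels. They were picked by symbol, with the collagens left out and with earlier results of these data known, and are 43 of the 55401 genes in the deposited tables. Each was matched to 1 gene ID, and all 43 had enough reads to be among the 15334 genes tested, although Mfap5 and Hmcn2 passed that filter through their WT reads. For the account below they were placed by known role into 13 contractile genes, 9 genes of stellate cells and pericytes, 12 fibroblast surface and matrix genes, and 9 genes of elastic fibres.

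The study measured polyadenylated RNA of primary mouse cholangiocytes, the epithelial cells that line bile ducts, in polycystic liver disease, in which bile ducts widen into cysts. The 2 groups were PLD and WT mice, both 3 months after tamoxifen, with 3 libraries each. Tamoxifen is an inducer commonly used to switch on a Cre recombinase. The labels give the genotypes only as PLD and WT, and the altered gene, the alleles, the Cre driver and the age of the mice were found in none of the sources used here. Cells were freed from the dissected biliary tree with enzymes and bound through EpCAM to magnetic beads, a selection for epithelial cells. Whether each library is of a separate mouse is not stated in the labels, so the p-values measure the spread between these libraries, which may be technical.

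Contractile cells shorten by sliding smooth muscle actin past smooth muscle myosin, and the transcription factor SRF with its partner myocardin switches on many of the genes for this apparatus. Stellate cells are the pericytes of the liver sinusoids, where they store retinoids and release growth factors. Portal fibroblasts sit beside the bile ducts and lay down collagen-binding proteoglycans and elastic fibres, in which an elastin core is held by fibrillins and fibulins and crosslinked by lysyl oxidases. Both stellate cells and portal fibroblasts can turn into contractile, matrix-making myofibroblasts in injured liver.

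Library totals ran from 15768561 to 16710548 counted reads, and levels below are TMM-normalised CPM (counts scaled by library size) unless values also scaled by gene length (TPM) are named. All 12 cholangiocyte markers were higher in PLD, with summed levels of 32380 to 44900 CPM in PLD and 9390 to 13710 CPM in WT, so the labelled cell type was present in both groups. The 14 endothelial markers all fell, with a median log2 fold change of -3.66 and summed levels of 548 to 1021 CPM in PLD and 7831 to 10160 CPM in WT. Of 8 macrophage markers 1 rose and 7 did not pass, and of 10 hepatocyte markers 4 fell, 2 rose and 4 did not pass. None of the marker genes that were looked at had 0 reads in all 6 libraries. PLD replicate 1 stood apart from the other PLD libraries, and results that rest on it are given without it below. CPM are shares of a library, so a lower value can also come from more RNA of other cells. In bulk RNA of this kind, that, fewer cells of a type and less RNA per cell cannot be told apart. Fewer cells of a type can mean fewer in the tissue or fewer carried through the release and EpCAM selection. These cannot be told apart either.

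Nearly all of the 43 genes were lower in the PLD libraries than in the WT libraries. Of these, 39 fell and 1, Thy1, rose at an adjusted p of 0.05 by edgeR's quasi-likelihood test, while Lum, Postn and Fbln2 did not pass. Of all 15334 genes tested, 28.4% fell and 27% rose by the same rule, and 55.4% changed in either direction. A fall of at least 2-fold was seen in 36 members, against 18.1% of all genes, and of at least 8-fold in 15 members, against 3.33% of all genes. Without Mfap5 and Hmcn2, which passed the filter only through WT, 37 of 41 members fell, 34 by at least 2-fold and 13 by at least 8-fold. Of the 13760 tested genes whose PLD libraries all reached the filter, 25.2% fell, 13.8% by at least 2-fold and 1.64% by at least 8-fold. The median log2 fold change of PLD over WT was -2.20 over the members and 0.01 over all genes.

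The groups did not overlap for 42 members. In 41 of these the highest PLD library lay below the lowest WT library, a pattern found in 33.2% of all tested genes, and in Thy1 all PLD libraries lay above all WT libraries, found in 33% of all genes. Only Fbln2 had overlapping groups among the 43. Mfap5 and Hmcn2, which passed the filter only through WT, are among the 41 that lay below WT. Summed over the members, the libraries held 2662, 3906 and 4074 CPM in PLD replicates 1, 2 and 3, against 10490, 12910 and 11490 CPM in WT replicates 1, 2 and 3. That was between 0.245% and 0.406% of all counted reads in PLD and between 1.09% and 1.35% in WT. Without PLD replicate 1 and WT replicate 1 together, 41 members fell and 1 rose, and of 15473 genes tested in that fit 4667 fell and 4297 rose.

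**Figure D1:**
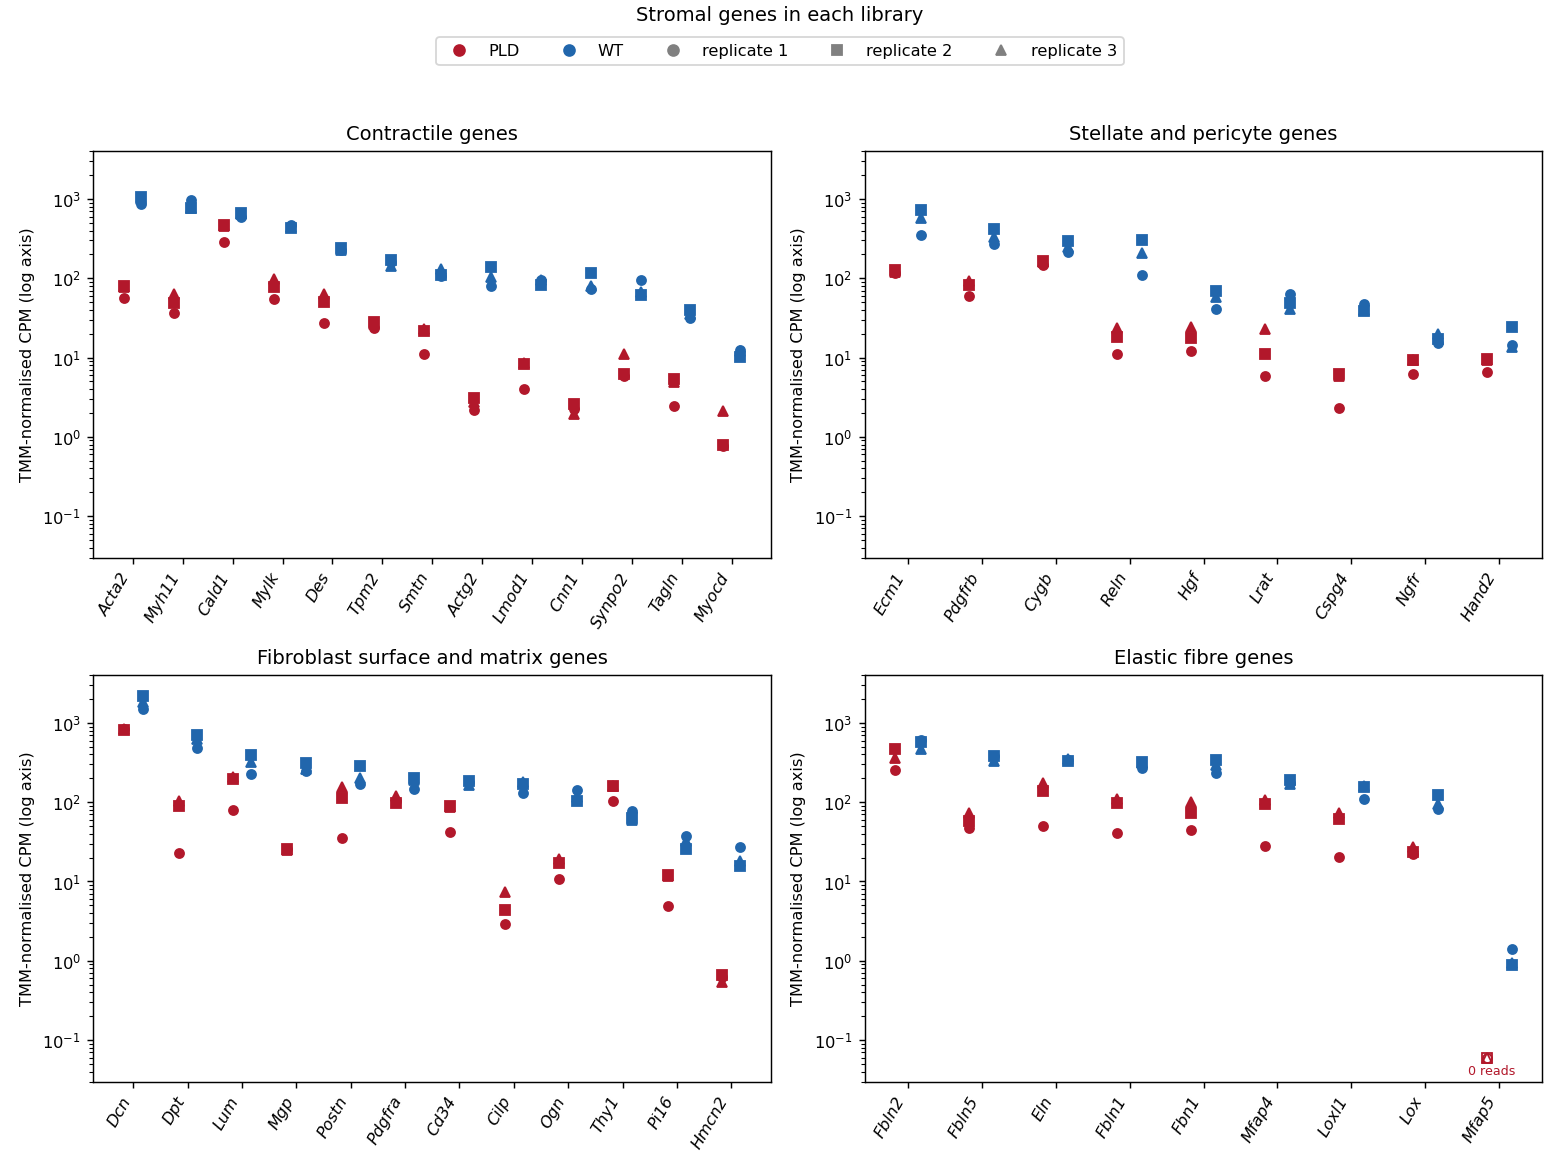
Level of each of the 43 genes in each library, 1 panel for each role (vertical axis in TMM-normalised CPM, log scale), with PLD in red to the left of WT in blue and a marker shape for each replicate. For 41 genes every PLD point lies below every WT point, Thy1 is the reverse and Fbln2 overlaps, and the open marks for Mfap5 stand for 0 reads.

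**Figure D2:**
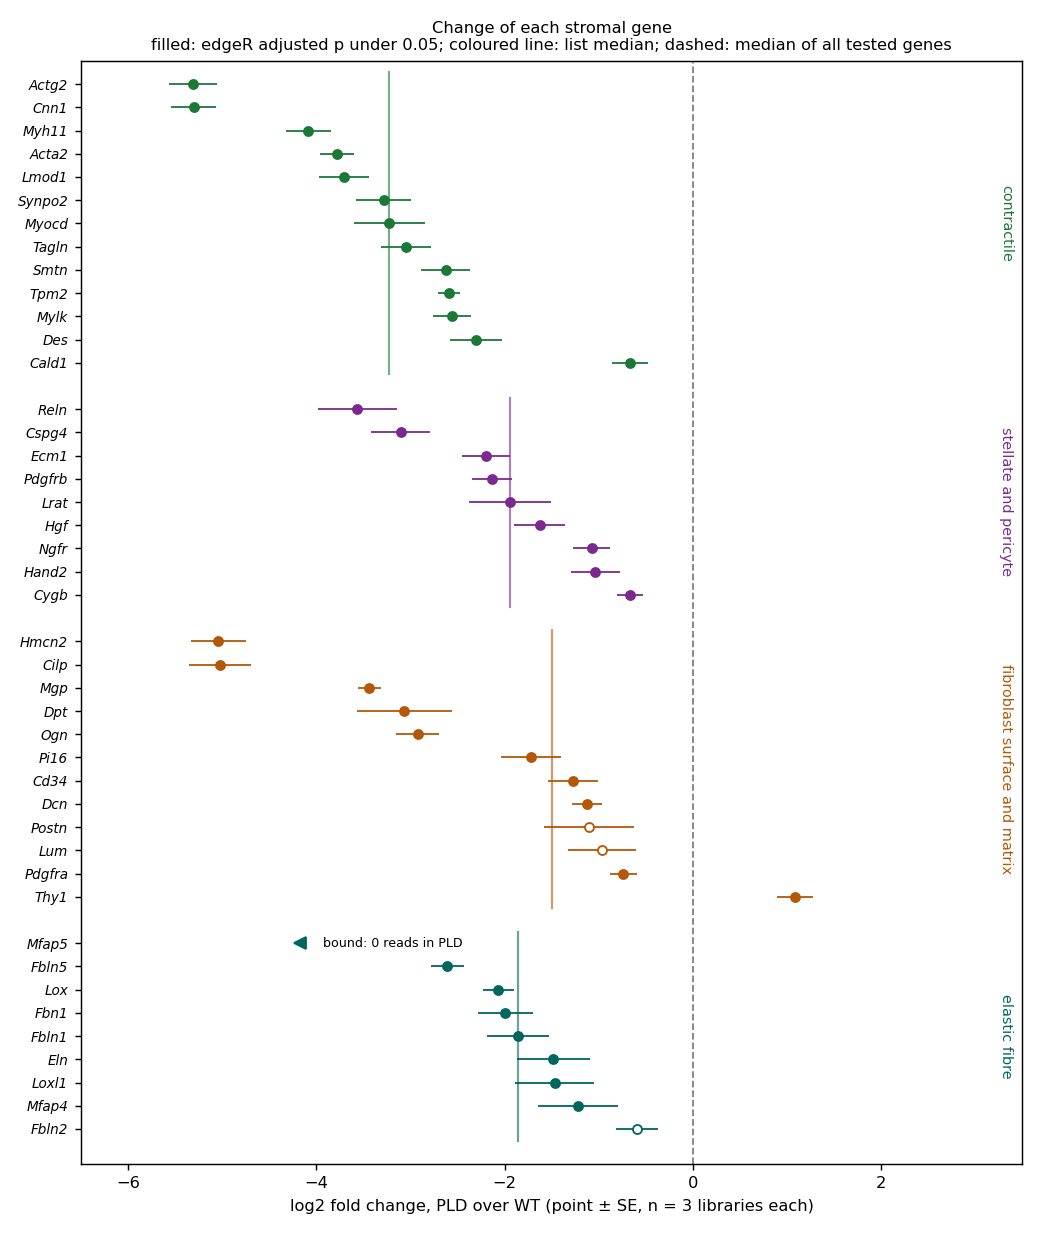
Log2 fold change of PLD over WT for each of the 43 genes (horizontal axis; points with standard errors, n = 3 libraries each), grouped by role, with filled points for an edgeR adjusted p under 0.05, a coloured line at each group's median and a dashed line at the median of all tested genes. Mfap5 is drawn at its bound because PLD had 0 reads, and Thy1 is the gene to the right of 0.

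Of the 4 roles, the contractile genes had the lowest median. All 13 fell and passed the test, against 28.4% of all genes tested, with a median log2 fold change of -3.22. A fall of at least 8-fold was seen in 8 of the 13, against 3.33% of all genes. The summed level of the 13 was 515 to 834 CPM in PLD and 3755 to 3922 CPM in WT, 5.33-fold lower in PLD by the group means. Acta2 (ENSMUSG00000035783.9, mm10 chromosome 19, 34241090 to 34255590), the smooth muscle actin that also marks myofibroblasts, had 56.6, 80.9 and 77.2 CPM in PLD replicates 1, 2 and 3, against 872, 1072 and 997 CPM in WT replicates 1, 2 and 3. Every PLD library lay far below every WT library, and the replicates of each group lay close together (log2 fold change -3.78 ± 0.18 SE, adjusted p = 2.81e-05).

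Myh11 (ENSMUSG00000018830.10, mm10 chromosome 16, 14194535 to 14291372), the smooth muscle myosin heavy chain, had 36.0, 48.1 and 63.8 CPM in PLD and 968, 777 and 766 CPM in WT, in the same replicate order as above. The groups lay far apart, with no PLD library near any WT library (log2 fold change -4.09 ± 0.24 SE, adjusted p = 4.11e-05). Cnn1 (ENSMUSG00000001349.5, mm10 chromosome 9, 22099216 to 22109630), calponin, which binds actin and restrains contraction, had 2.27, 2.62 and 1.92 CPM in PLD and 73.5, 117 and 79.6 CPM in WT. Its PLD libraries were nearly alike, and WT replicate 2 was the highest library (log2 fold change -5.30 ± 0.24 SE, adjusted p = 2.53e-05). Tpm2, a tropomyosin that lies along the actin filament, had 23.8, 27.9 and 26.7 CPM in PLD and 160.2, 169 and 143 CPM in WT, again without overlap and with little spread in either group (log2 fold change -2.59 ± 0.11 SE, adjusted p = 2.53e-05).

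Cald1, encoding caldesmon, had the smallest change among the contractile genes, with 288, 470.4 and 451 CPM in PLD and 596, 671 and 648 CPM in WT. PLD replicate 1 was well below the others, and the highest PLD library lay below the lowest WT library (log2 fold change -0.66 ± 0.19 SE, adjusted p = 0.0200). That call was lost without WT replicate 2 (adjusted p = 0.0578), without WT replicate 3 (adjusted p = 0.0606) and when a trend with gene length was removed (log2 fold change -0.39, adjusted p = 0.117). Cald1, unlike Myh11, is also made in many non-muscle cells.

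The other contractile genes all fell, and are examples picked once their values had been seen. Actg2, the enteric smooth muscle actin, fell by 5.31 ± 0.26 on the log2 scale. Lmod1, a leiomodin that nucleates actin filaments, fell by 3.70 ± 0.26, Mylk, the myosin light chain kinase that triggers contraction, by 2.56 ± 0.20, and Des, the muscle intermediate filament desmin, by 2.30 ± 0.28. Myocd, encoding the SRF partner myocardin, had 0.758, 0.793 and 2.10 CPM in PLD replicates 1, 2 and 3, against 12.4, 10.2 and 12.1 CPM in WT replicates 1, 2 and 3, a low level at which PLD replicate 3 was the highest of its group. The groups did not overlap, and the log2 fold change was -3.22 ± 0.38, or -3.87 without PLD replicate 3. Synpo2, Smtn and Tagln, which encode actin-binding proteins of smooth muscle, fell by between 2.63 and 3.29 on the log2 scale. Because 85.5% of the exonic bases of Tagln overlap a gene on the opposite strand, and counting took no account of strand, its level is uncertain. Acta2 and Actg2 are closely related to other actin genes. Reads that fit several genes equally may be missing from their counts, which was not tested.

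SRF binds a short element called the CArG box, whose inner bases are all A or T, and the promoters of contractile genes were searched for it on both strands. RefSeq promoters on GRCm38.p6, running from 250 bases before to 50 bases after the start site, were found for 28 of the 43 members, 9 of them contractile. None of the 28 held the exact element, which 1.81% of the 27025 promoters in the table did, and this says only that the letters are not in this window. With 1 G or C allowed among the inner bases, a form added after seeing the data, Acta2, Lrat and Fbln2 held it, 3 of 28 against 11.3% of all promoters. Among 19 promoters of the other contractile genes considered, 6 held the exact element, 31.6% against 1.81% of all promoters. They include that of Myl9, the regulatory myosin light chain of smooth muscle. With 1 G or C allowed, 8 of the 19 held it, 42.1% against 11.3% of all promoters. Of the 9 contractile members with a promoter, only Acta2 held the form with 1 G or C, 11.1% against 11.3% of all promoters. Tagln, Myh11 and Actg2 are among the contractile members for which no promoter was found, so these counts do not cover them. The promoters of Acta2 and Myl9 are shown as examples of the element, each 5′ to 3′ on the gene's own strand. Capitals mark the CArG box, exact or with 1 G or C inside. That of Acta2 is chr19:34255324-34255623 on the minus strand, with boxes starting at positions -84 and -34 from the start site. That of Myl9 is chr2:156775214-156775513 on the plus strand, with boxes at -161 and -99, of which the first is exact.
Acta2: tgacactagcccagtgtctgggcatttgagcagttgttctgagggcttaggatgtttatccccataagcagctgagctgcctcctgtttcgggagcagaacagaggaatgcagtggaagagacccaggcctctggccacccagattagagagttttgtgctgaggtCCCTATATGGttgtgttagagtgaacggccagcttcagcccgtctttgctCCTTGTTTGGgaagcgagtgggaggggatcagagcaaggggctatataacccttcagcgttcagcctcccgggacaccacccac
Myl9: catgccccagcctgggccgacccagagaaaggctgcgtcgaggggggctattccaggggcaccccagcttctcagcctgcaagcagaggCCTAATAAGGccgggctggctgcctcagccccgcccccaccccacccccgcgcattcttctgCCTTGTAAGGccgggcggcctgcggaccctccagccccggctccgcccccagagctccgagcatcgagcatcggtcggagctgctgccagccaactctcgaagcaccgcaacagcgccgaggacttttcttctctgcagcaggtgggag
In Myl9 the level was 28.9, 44.1 and 52.4 CPM in PLD and 363, 307 and 292 CPM in WT. Its groups did not overlap, and PLD replicate 1 was the lowest library (log2 fold change -2.94 ± 0.22 SE, adjusted p = 7.60e-05). Srf itself had 67.7, 71.2 and 70.6 CPM in PLD and 215, 175 and 190.2 CPM in WT, likewise without overlap (log2 fold change -1.47 ± 0.11 SE, adjusted p = 6.74e-05). A match is a description of the letters, and binding was not measured.

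Of the 21 other contractile genes considered, 16 fell and none rose (17 and 1 with DESeq2), with a median log2 fold change of -1.25. Over all genes tested with edgeR 28.4% fell and 27% rose. Tpm1, Actn1, Csrp1, Pdlim7 and Mrtfa did not pass. Tpm1, a tropomyosin made in many cell types, had a log2 fold change of 0.32, and Actn1, the non-muscle actinin, of -0.05.

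The stellate and pericyte genes were lower as well, by less. All 9 fell, against 28.4% of all genes tested. Their median log2 fold change was -1.94 and their summed level 367 to 467 CPM in PLD and 1127 to 1946 CPM in WT, 3.6-fold lower in PLD. Pdgfrb, the PDGF receptor of pericytes and stellate cells, had 60.0, 81.2 and 92.8 CPM in PLD and 273, 419 and 335 CPM in WT. All PLD libraries were below all WT libraries, and replicate 1 was the lowest of each group (log2 fold change -2.13 ± 0.21 SE, adjusted p = 2.18e-04). Cspg4, the NG2 proteoglycan of pericytes, had 2.34, 6.28 and 5.82 CPM in PLD and 46.9, 39.1 and 39.4 CPM in WT, with PLD replicate 1 the lowest and no overlap (log2 fold change -3.11 ± 0.32 SE, adjusted p = 2.31e-04).

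Ecm1, a secreted glycoprotein of the extracellular matrix, had 116, 127 and 119 CPM in PLD replicates 1, 2 and 3, against 349, 733 and 578 CPM in WT replicates 1, 2 and 3. The PLD libraries were nearly alike, and the spread lay in WT, where replicate 1 was the lowest (log2 fold change -2.20 ± 0.25 SE, adjusted p = 3.90e-04). Cygb, cytoglobin, a globin that marks quiescent stellate cells, had 147, 167 and 161 CPM in PLD and 214, 293 and 246 CPM in WT. Its groups did not overlap but lay closer than those of any other gene of this role (log2 fold change -0.67 ± 0.14 SE, adjusted p = 0.00468).

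Lrat, the enzyme that makes the retinyl esters stored by stellate cells, had 5.79, 11.0 and 23.0 CPM in PLD and 63.1, 49.2 and 41.5 CPM in WT. No PLD library reached the WT values, but PLD replicate 3 was several-fold above PLD replicate 1 (log2 fold change -1.94 ± 0.44 SE, adjusted p = 0.00725). Without PLD replicate 3 the log2 fold change of Lrat was -2.59. Reln, a secreted glycoprotein made by stellate cells and, in liver, also by lymphatic endothelium, fell by 3.56 ± 0.42 on the log2 scale. Hgf, the hepatocyte growth factor, fell by 1.63 ± 0.28, Ngfr, a neurotrophin receptor, by 1.07 ± 0.20, and Hand2, a transcription factor of stellate cells, by 1.03 ± 0.26. An antisense gene, Hand2os1, covers 39.6% of the exonic bases of Hand2, so its level is uncertain too. Lrat and these 4 are examples picked with their values in view. Ngfr is also made by Schwann cells, and of 6 glial markers 5 fell and S100b rose in the same libraries, and their part in the result was not tested. The 5 that fell summed to 2.89, 4.76 and 3.84 CPM in PLD and to 73.5, 37.2 and 42.1 CPM in WT, while S100b had 16.8, 22.6 and 17.6 CPM in PLD and 8.85, 3.54 and 4.94 CPM in WT.

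Of the 16 other stellate and pericyte genes considered, 14 fell and none rose (15 and 1 with DESeq2), with a median log2 fold change of -1.74. Over all genes tested with edgeR 28.4% fell and 27% rose. Notch3, the Notch receptor of mural cells, had a log2 fold change of -3.31 ± 0.25, and Vipr1 and Hhip did not pass.

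The fibroblast genes were the most mixed. Of the 12, 9 fell, 1 rose and 2 did not pass, with a median log2 fold change of -1.50 and a summed level of 1271 to 1747 CPM in PLD and 3362 to 4621 CPM in WT, 2.58-fold lower in PLD. Over all genes tested 28.4% fell and 27% rose. The 9 include Hmcn2, which passed the filter only through WT. Thy1 (ENSMUSG00000032011.5, mm10 chromosome 9, 44043384 to 44048579), a surface glycoprotein of portal fibroblasts, had 103, 159 and 160.4 CPM in PLD replicates 1, 2 and 3, against 76.5, 63.1 and 59.4 CPM in WT replicates 1, 2 and 3. Every PLD library lay above every WT library, with PLD replicate 1 the lowest of its group (log2 fold change 1.08 ± 0.19 SE, adjusted p = 0.00244). Thy1 is also made by T cells and neurons. Of 6 lymphocyte markers only 2 had enough reads to be tested, of which Ptprc fell and Cd79a did not pass. The summed level of the 6 was 14.1 to 28.8 CPM in PLD and 38.5 to 39.7 CPM in WT. Most of it was Ptprc, with 13.4, 16.8 and 26.5 CPM in PLD and 36.8, 37.0 and 37.1 CPM in WT. The T cell genes Cd3e and Cd3d were too low to be tested. Cd3e had 0.138, 0.366 and 0.420 CPM in PLD and 0.118, 0.118 and 0.124 CPM in WT. Cd3d had 0.138, 0.488 and 0.781 CPM in PLD and 0.177, 0.118 and 0.185 CPM in WT. The part of lymphocytes in the result for Thy1 was not tested.

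Dcn (ENSMUSG00000019929.16, mm10 chromosome 10, 97479609 to 97518143), decorin, a collagen-binding proteoglycan, had 841, 826 and 848 CPM in PLD replicates 1, 2 and 3, against 1488, 2158 and 1843 CPM in WT replicates 1, 2 and 3. The PLD libraries were almost identical and all lay below WT, where replicate 2 was the highest (log2 fold change -1.13 ± 0.16 SE, adjusted p = 9.36e-04). Mgp (ENSMUSG00000030218.2, mm10 chromosome 6, 136872435 to 136875823), the matrix Gla protein that keeps soft tissue from calcifying, had 25.7, 26.1 and 24.9 CPM in PLD and 249, 317 and 263 CPM in WT. It was equally steady in PLD, where every library lay far below WT (log2 fold change -3.44 ± 0.13 SE, adjusted p = 2.48e-05). Cilp, a matrix protein first known from cartilage, had 2.89, 4.33 and 7.45 CPM in PLD and 132, 169.9 and 179 CPM in WT, and Hmcn2, a hemicentin of the matrix, had 0.620, 0.671 and 0.540 CPM in PLD and 27.0, 15.6 and 18.4 CPM in WT. Neither overlapped, and every PLD library lay far below WT for both (log2 fold change -5.02 ± 0.33 SE, adjusted p = 5.27e-05 for Cilp, and log2 fold change -5.04 ± 0.29 SE, adjusted p = 4.11e-05 for Hmcn2). The fold change of Hmcn2 rests on 9, 11 and 9 reads in PLD replicates 1, 2 and 3.

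Dpt, dermatopontin, which helps collagen fibrils assemble, had 23.1, 90.2 and 105 CPM in PLD and 487, 706 and 634 CPM in WT. PLD replicate 1 was well below the other PLD libraries, and all were far below WT (log2 fold change -3.06 ± 0.51 SE, adjusted p = 0.00187). Lum, lumican, a close relative of decorin, had 79.0, 196 and 206 CPM in PLD and 228, 389 and 322 CPM in WT. The highest PLD library lay just below the lowest WT library, and the test was narrowly missed (log2 fold change -0.96 ± 0.36 SE, adjusted p = 0.0518). Postn, periostin, a matrix protein of activated fibroblasts, had 35.3, 112 and 157 CPM in PLD and 169, 284 and 202 CPM in WT, with the same arrangement (log2 fold change -1.11 ± 0.47 SE, adjusted p = 0.0820). Both passed without PLD replicate 1, the library farthest from WT, with log2 fold changes of -0.63 (adjusted p = 0.0393) for Lum and -0.69 (adjusted p = 0.0451) for Postn. Lum also passed without WT replicate 1 (log2 fold change -1.15, adjusted p = 0.038) and with DESeq2 (adjusted p = 0.0116), and Postn without PLD replicate 3 (log2 fold change -1.55, adjusted p = 0.0392).

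The remaining members of this role, examples picked with their values in view, all fell. Ogn, osteoglycin, fell by 2.92 ± 0.22 on the log2 scale. Pi16, a marker of adventitial fibroblasts, fell by 1.72 ± 0.32, Cd34, which also marks endothelium, by 1.28 ± 0.27, and Pdgfra, the PDGF receptor of fibroblasts, by 0.74 ± 0.14. Of the 20 other fibroblast genes considered, 15 fell and 1 rose, against 28.4% and 27% of all genes tested, with a median of -1.78. Entpd2, Gli1, Slit2 and Igfbp5 did not pass, with log2 fold changes of 0.36, -0.24, -0.17 and -0.47. The gene that rose was Pdpn, podoplanin, which is also a lymphatic and mesothelial gene, with 72.6, 88.5 and 67.0 CPM in PLD and 21.9, 26.9 and 24.8 CPM in WT and no overlap (log2 fold change 1.63 ± 0.14 SE, adjusted p = 1.23e-04). Of 6 mesothelial markers 4 fell, Msln rose and Upk3b did not pass, and their part in the result was not tested. Msln alone had 1156, 909.5 and 738 CPM in PLD and 17.5, 18.4 and 15.6 CPM in WT. The other 5 mesothelial markers summed to 10.1, 29.3 and 29.7 CPM in PLD and to 102, 134 and 152 CPM in WT.

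Of the 9 elastic fibre genes, 8 fell and 1 did not pass, with a median log2 fold change of -1.86 and a summed level of 508 to 1026 CPM in PLD and 2177 to 2426 CPM in WT, 2.66-fold lower in PLD. Over all genes tested 28.4% fell. The 8 include Mfap5, which passed the filter only through WT. Fbln5, a fibulin that tethers elastin to cells, had 47.5, 58.4 and 73.9 CPM in PLD and 386, 378 and 334 CPM in WT. The groups lay far apart (log2 fold change -2.61 ± 0.18 SE, adjusted p = 5.70e-05). Fbn1, fibrillin, the main protein of microfibrils, had 44.1, 74.0 and 101 CPM in PLD and 236, 341 and 295 CPM in WT, with PLD replicate 1 lowest and no overlap (log2 fold change -1.99 ± 0.29 SE, adjusted p = 0.00109). Lox, the lysyl oxidase that crosslinks elastin and collagen, had 22.2, 23.4 and 26.9 CPM in PLD and 83.0, 125 and 96.2 CPM in WT. Its PLD libraries were close together and all below WT (log2 fold change -2.07 ± 0.17 SE, adjusted p = 9.63e-05).

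Mfap4, a microfibril-associated protein whose exons overlap those of Mapk7 on the opposite strand, had 28.0, 95.8 and 107 CPM in PLD and 174, 192 and 172 CPM in WT. PLD replicate 1 was far below the other PLD libraries, and no PLD library reached WT (log2 fold change -1.22 ± 0.42 SE, adjusted p = 0.0405). That call was lost without PLD replicate 2 (adjusted p = 0.0673) and without WT replicate 1, 2 or 3 (adjusted p = 0.067, 0.0938 and 0.0863). Loxl1, a relative of Lox needed for elastin renewal, had a log2 fold change of -1.47 ± 0.42 with an adjusted p of 0.0193. Its call was lost without WT replicate 2 (adjusted p = 0.053) and without WT replicate 3 (adjusted p = 0.0608). Fbln2, a fibulin of vessel walls and portal tracts, had 254, 473 and 361 CPM in PLD and 606, 574 and 463 CPM in WT. PLD replicate 2 lay above WT replicate 3, and the difference did not pass (log2 fold change -0.59 ± 0.23 SE, adjusted p = 0.0561), although it did with DESeq2 (adjusted p = 0.0225) and without PLD replicate 2 (log2 fold change -0.82, adjusted p = 0.0215).

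Mfap5, another microfibril protein, had 0 reads in all PLD libraries and 54 reads over the WT libraries, so it was at least 18.1-fold lower in PLD, taking a floor of 3 counts over the PLD group. With Mfap5 at this bound the median of the elastic fibre genes was unchanged at -1.86. Eln, elastin itself, fell by 1.48 ± 0.39 on the log2 scale and Fbln1, a fibulin, by 1.86 ± 0.33, both examples picked with their values in view.

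Of the 16 other elastic fibre genes considered, 10 fell and 2 rose, against 28.4% and 27% of all genes tested, with a median of -1.41. Ltbp3, Emilin2, Mfap2 and Adamtsl4 did not pass. The 2 that rose were Fbn2, a second fibrillin, and Efemp1, a fibulin. Fbn2 had 40.8, 75.4 and 126 CPM in PLD and 15.3, 14.3 and 21.7 CPM in WT, with PLD replicate 3 the highest and no overlap (log2 fold change 2.24 ± 0.39 SE, adjusted p = 0.00237). Efemp1 had 339.6, 395 and 362 CPM in PLD and 129, 149.5 and 144 CPM in WT, steady within each group (log2 fold change 1.38 ± 0.11 SE, adjusted p = 9.63e-05). Over the 73 other stromal genes considered in the 4 roles, 55 fell and 3 rose, against 28.4% and 27% of all genes tested, with a median of -1.47. The lists were chosen with earlier results of these data known, so these counts lend no separate support.

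**Figure D3:**
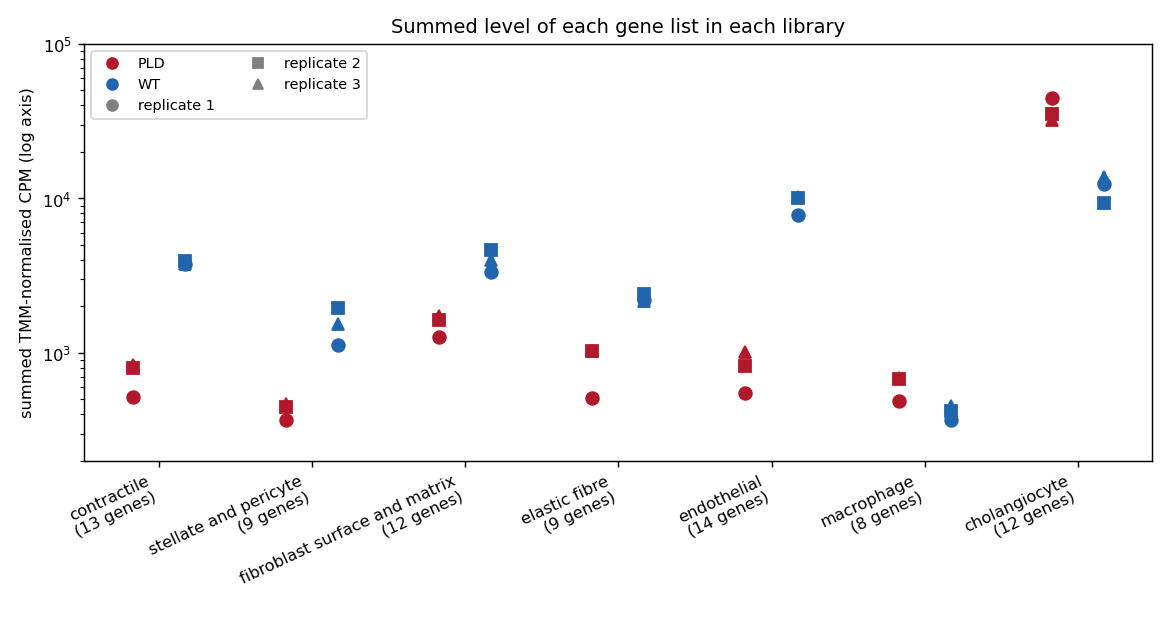
Summed level of the genes of each role, and of endothelial, macrophage and cholangiocyte markers, in each library (vertical axis in summed TMM-normalised CPM, log scale), PLD in red left of WT in blue. The contractile sum lies between 515.4 and 833.6 CPM in PLD and between 3755 and 3922 CPM in WT, and PLD replicate 1 is the lowest library for each of the 4 roles and the highest for cholangiocyte markers.

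Per length, the order of the genes differed between the groups. In WT the highest member was Acta2 at 1812 ± 205 TPM (SD, n = 3), followed by Dpt at 1434 ± 275, Dcn at 1273 ± 248, Mgp at 946 ± 139 and Ecm1 at 892 ± 321 TPM. None of these differed from its neighbour in the order by more than their 2 SDs together. In PLD the highest member was Dcn at 489 ± 32.4 TPM (SD, n = 3), followed by Cygb at 232 ± 27.4, Lum at 227 ± 109, Fbln2 at 196 ± 65.3, Ecm1 at 163 ± 15.1 and Thy1 at 162 ± 46.0 TPM. Dcn stood above Cygb by more than their 2 SDs together and the other neighbours did not, while Acta2 was at 112 ± 26.0 TPM in PLD. In WT Thy1 was at 89.9 ± 12.8 TPM.

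The levels were next set against 3 genes in the same libraries, Epcam for cholangiocytes, Pecam1 for endothelium and Dcn for fibroblasts, by dividing raw reads. Epcam had 1363, 973 and 919 CPM in PLD and 394, 254 and 416 CPM in WT, and Pecam1, an adhesion protein of endothelial cells, had 61.4, 77.4 and 95.0 CPM in PLD and 826, 1079 and 905 CPM in WT. Epcam was higher and Pecam1 lower in every PLD library than in any WT library, so each ratio takes in the change of its denominator. Per 100 Epcam reads, 42 members had every PLD library below every WT library, as did 89% of all tested genes, and no member had the reverse, found in 1.94% of all genes. The exception was Thy1, with 7.53, 16.3 and 17.4 reads per 100 Epcam reads in PLD and 19.4, 24.8 and 14.2 reads per 100 Epcam reads in WT. PLD replicates 2 and 3 lay within the WT range for Thy1 by this measure. Hmcn2 and Mfap5, which passed the filter only through WT, are among the 42. The log2 fold change in CPM was 1.08 for Thy1 and 1.61 for Epcam.

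Per 100 Pecam1 reads, Acta2 had 92.3, 104 and 81.3 reads per 100 Pecam1 reads in PLD and 106, 99.4 and 110.2 reads per 100 Pecam1 reads in WT. The groups overlapped for Acta2, whose reads stood at a near 1 to 1 ratio with Pecam1 in all 6 libraries. Over the members, 6 had all PLD libraries below WT, against 0.424% of all tested genes, 29 had them above, against 94.9% of all genes, and 8 overlapped. The 6 were the contractile genes Actg2, Cnn1 and Myh11, the matrix genes Cilp and Hmcn2, and Mfap5. Hmcn2 and Mfap5 passed the filter only through WT, so their place among the 6 carries no weight. Of the 13 contractile genes 3 were below, 6 above and 4 overlapping. Of the 9 stellate and pericyte genes none was below, 7 were above and 2 overlapped, while 8 of the 12 fibroblast genes and 8 of the 9 elastic fibre genes were above. Dcn had 1370, 1067 and 892 reads per 100 Pecam1 reads in PLD and 180.2, 200 and 204 reads per 100 Pecam1 reads in WT. Every PLD library lay far above every WT library for Dcn by this measure. The part of endothelial cells in the result was not tested.

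Per 100 Dcn reads, 26 of the other 42 members had all PLD libraries below WT, against 9.77% of all tested genes, 3 had them above, against 68.9% of all genes, and 13 overlapped. Those above were Cygb, Pdgfra and Thy1. Hmcn2 and Mfap5, which passed the filter only through WT, are among the 26 below. Of the 13 contractile genes 12 were below and 1 overlapped, as against 4 of the 9 stellate and pericyte genes, 5 of the 11 fibroblast genes and 5 of the 9 elastic fibre genes below. Acta2 had 6.73, 9.79 and 9.11 reads per 100 Dcn reads in PLD and 58.6, 49.7 and 54.1 reads per 100 Dcn reads in WT. Every PLD library was several-fold below every WT library for Acta2 by this measure.

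**Figure D4:**
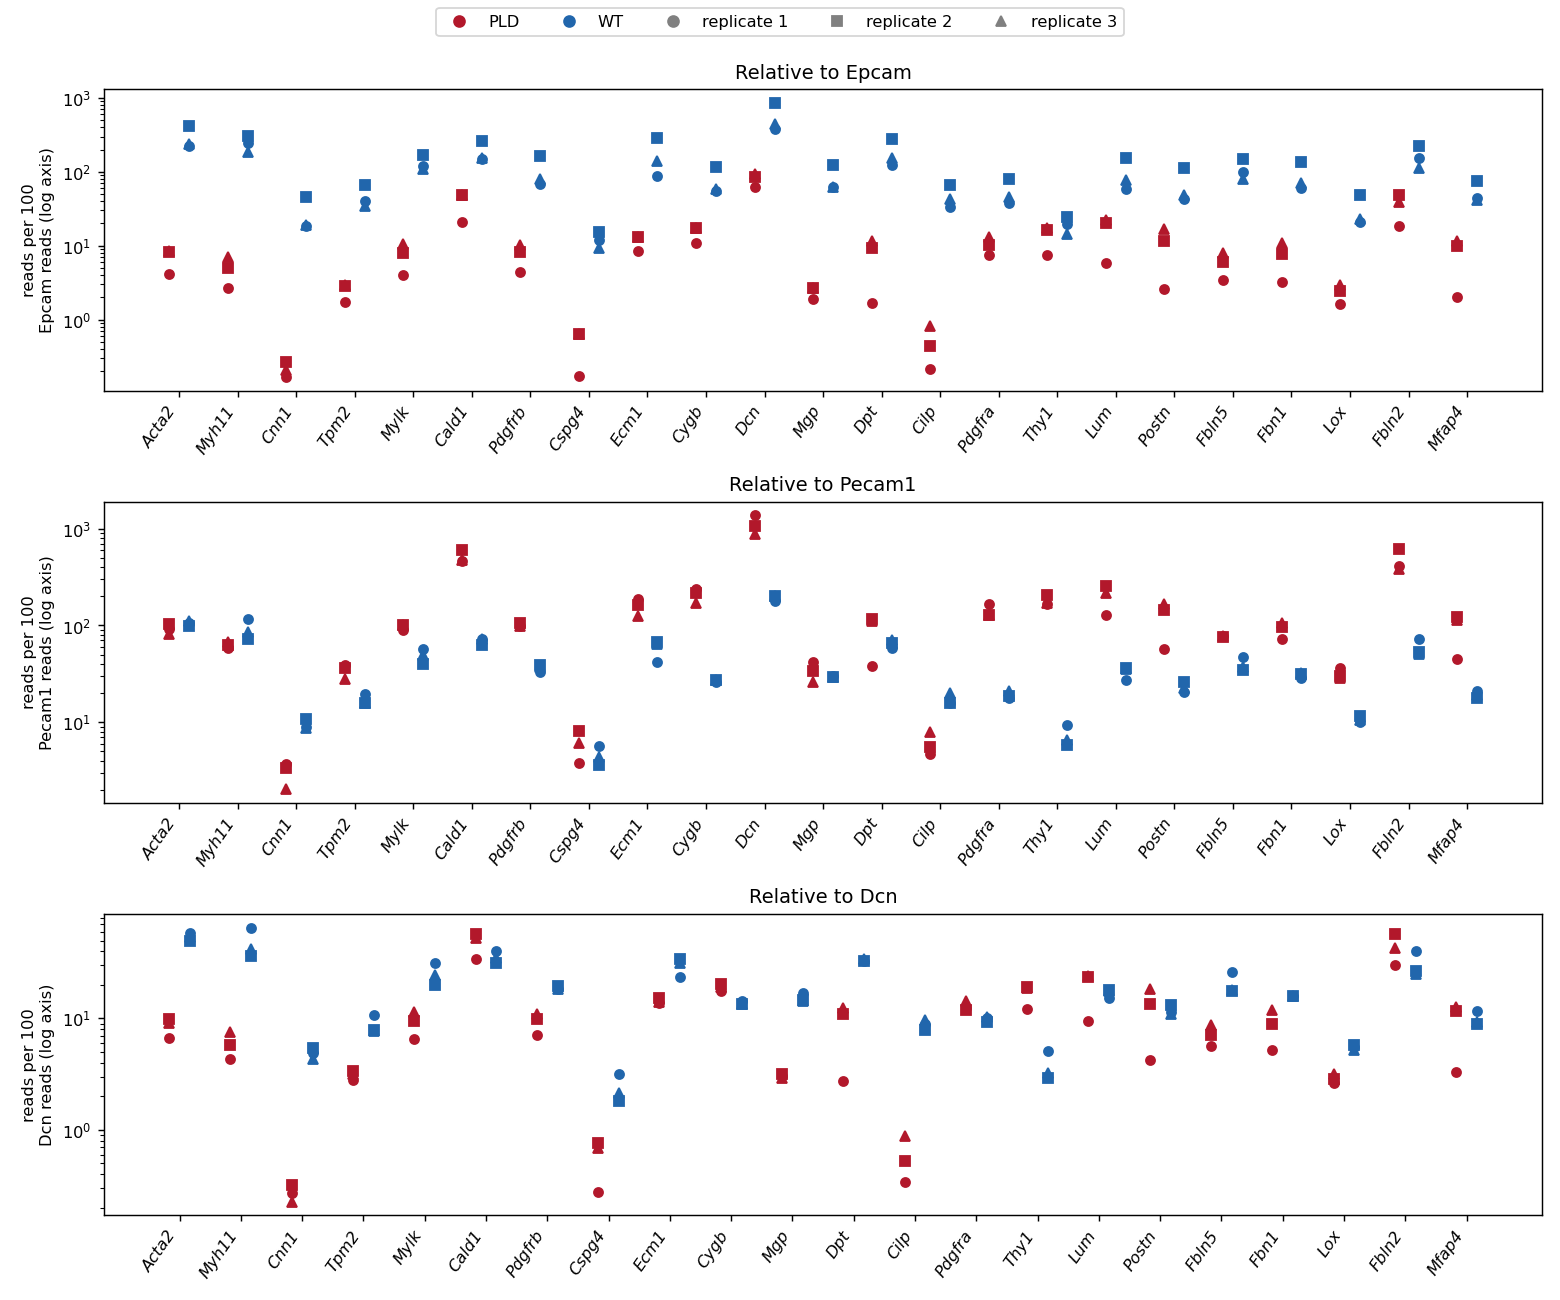
Reads of 23 members (22 in the Dcn panel) per 100 Epcam reads, per 100 Pecam1 reads and per 100 Dcn reads in each library (vertical axes on a log scale), PLD in red left of WT in blue. Acta2 lies below WT by the Epcam and Dcn measures and overlaps by the Pecam1 measure, where it runs from 81.3 to 104.5 reads in PLD and from 99.4 to 110.2 reads in WT.

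Within PLD the members varied to unlike degrees. PLD replicate 1 was the lowest PLD library for 37 of the 43 members (86%), against 41.3% of all tested genes, and lay more than 2-fold below the mean of the other PLD libraries for 15 members (34.9%), against 7.82% of all genes. The log2 ratio of replicate 1 to the mean of the other PLD libraries was -2.08 for Dpt, -1.93 for Postn, -1.86 for Mfap4, -1.74 for Loxl1 and -1.64 for Eln. It was 0.01 for Dcn and for Mgp, 0.03 for Hmcn2, -0.09 for Ecm1 and -0.18 for Lox, so genes of the same role lay at both ends. Without PLD replicate 1 the median log2 fold changes were -2.98 for the contractile, -1.58 for the stellate and pericyte, -1.26 for the fibroblast and -1.53 for the elastic fibre genes. Within WT, replicate 2 was the highest library for 24 members (55.8%), against 34.2% of all genes. The widest WT differences were in Reln and Ecm1, whose log2 ratios of WT replicate 1 to the mean of the other WT libraries were -1.20 and -0.91.

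**Figure D5:**
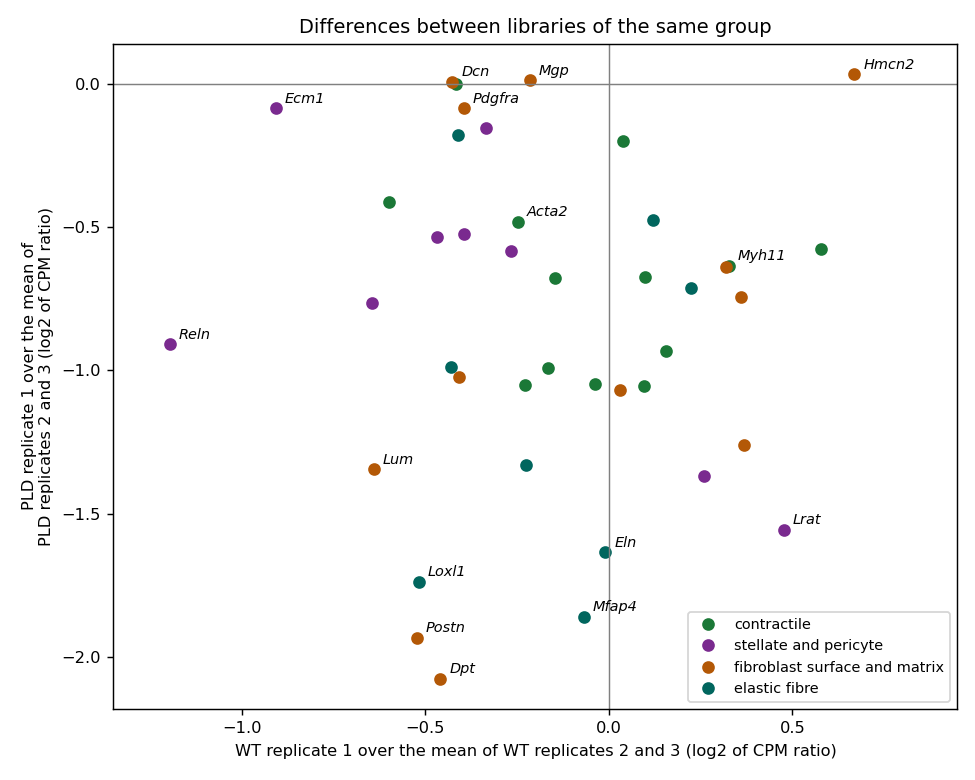
For each of the members other than Mfap5, the log2 ratio of PLD replicate 1 to the mean of PLD replicates 2 and 3 (vertical axis) against the log2 ratio of WT replicate 1 to the mean of WT replicates 2 and 3 (horizontal axis), coloured by role. Most points lie below 0 on the vertical axis, with Dpt lowest at -2.08 and Dcn, Mgp and Hmcn2 at or just above 0.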

How the data were processed

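Read counts per gene were deposited by the authors as 1 table per library, made with featureCounts 1.6.0 on GENCODE vM25 and mm10, per the file headers. STAR 2.7.4a, SAMtools 1.12 and DESeq2 1.26.0 are named without settings, per the submitters' processing notes. The command in the headers sets no strand option, so reads of overlapping antisense genes cannot be told apart, and none of the sources used here gives the kit's strandedness or the read length. Symbols came from GENCODE vM21 by ID for 55141 of 55401 genes, and coordinates are those of the files.

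Here counts were tested with edgeR 4.0.16 in R 4.3.3. filterByExpr by group kept 15334 genes with at least 99.8% of each library's reads, TMM factors ran from 0.922 to 1.04, and PLD and WT were compared with the quasi-likelihood F test, two-sided and without covariates, with Benjamini-Hochberg adjustment over all tested genes at 0.05. The biological coefficient of variation was 0.196. Each SE of a log2 fold change is its absolute value divided by the square root of the quasi-likelihood F statistic. The floor behind the bound for Mfap5 is 3 counts over the PLD group and covers counting error only. TPM was computed from the counts and the files' gene lengths, and ratios to Epcam, Pecam1 and Dcn from raw counts. Tested on simulated data over 15334 genes with 200 changed, the same fit recovered 59% of 2-fold and 94% of 4-fold changes. False calls made up 7.27%, and 0 were of the wrong sign. In the real data 55.4% of genes were called, so these rates do not carry over to this comparison. Replicates of a group differed by more than sampling noise (chi-square per degree of freedom 9.72 to 63.8), so none was counted as a copy.

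The members, role lists and markers were chosen with earlier results of these data known. Values in every library are given by a rule for 21 genes: in each role the 3 with the smallest p and the 2 with the highest mean TPM, every member that rose and every member that did not pass. Other members and the other stromal genes named are examples picked once their values had been seen. Alternatives were DESeq2 1.42.0, its size factors in edgeR, no filter on low counts, a block on replicate number, removal of a gene length trend, and leaving out each library. Leaving out both replicate 1 libraries and allowing 1 G or C in the CArG box were chosen after seeing the data.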

Additional observations from a re-analysis of the deposited data

How the results depend on the processing

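The direction of the members held in all 12 alternatives run, and of 516 pairs of member and alternative 491 kept the same side of the threshold, 9 lost the call, 16 gained it and 0 reversed. For 37 of the 43 members no alternative changed the call, and the 6 exceptions were Cald1, Lum, Postn, Fbln2, Mfap4 and Loxl1. The cause was not tested. The count of members that fell, 39, was 41 with DESeq2, 39 with DESeq2's size factors in edgeR, 42 without a filter on low counts and 39 with the gene length trend removed, and lay between 36 and 41 when each library was left out in turn. The 1 member that rose was Thy1, and 1 rose in every alternative. The count of members at least 2-fold lower, 36, lay between 32 and 37 when each library was left out. Over all tested genes the counts of 4357 lower and 4136 higher lay between 3626 and 4667 and between 3173 and 4297 over the alternatives. Same-numbered PLD and WT libraries had correlations of their deviations of 0.156, 0.0363 and 0.0613, not every library correlated best with its own number, and the labels give no pairing. With a replicate block 42 members fell, 38 of them at least 2-fold, and over all genes 4242 fell and 3920 rose. Under this block Lum (adjusted p = 0.00405), Postn (0.019) and Fbln2 (0.0442) passed. With 3 libraries a group, 59% of 2-fold changes were recovered on simulated data in which 200 of 15334 genes changed. In the real data 55.4% of genes were called, so the adjusted threshold was unlike and the 59% does not carry over. The lowest members in PLD, Hmcn2 and Mfap5, had at most 11 reads in a PLD library.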

Other observations

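Some members share exonic bases with a gene on the opposite strand, and the deposited counts were made without a strand setting. For Tagln, which encodes the actin-binding protein transgelin, 85.5% of its exonic bases are shared with the predicted gene Gm48529 and 12.2% with Pcsk7. Tagln was at 7.39 ± 2.99 TPM in PLD and 72.4 ± 8.89 TPM in WT (SD, n = 3 each), far below Acta2 and Myh11 in WT, and Gm48529 had at most 63 reads in any library. The level of Tagln is therefore uncertain, and the part of the overlap in it was not tested. Smaller shares were found for Hand2 with Hand2os1 (39.6%), Mfap4 with Mapk7 (27.8%), Cygb with Prcd (22.5%), Fbn1 with Gm9913 (20.1%) and Smtn with Gm11946 (20%).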
